A study of Arabidopsis thaliana with 28 samples.

Results

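The 9 genes followed here are CHI (AT2G43570), RING1 (AT5G10380), AT3G16530, AT5G52760, AT4G03450, AT3G60420, AT5G24210, AT2G18690 and AT5G12940, out of 13286 Arabidopsis genes that the array names through a probe set of their own. They were chosen because their signals in developing leaves were among those most raised at 96 h against 24 h, so every value from that contrast is a description of the choice and not a finding. RNA from leaves of the accession Col-0, grown with 10 h of light a day, was measured on ATH1 arrays, which carry short probes for 22810 probe sets. The series' title gives ambient CO2 and low light as the treatment, within a study of signals that pass between leaves. The groups were mature leaves after 24 h of treatment, with 2 replicates, and developing leaves (insertions 19 to 21) after 2, 4, 12, 24, 48 and 96 h, with 4 replicates each. All groups carried the treatment, and leaves without it were not analysed here. The labels do not say whether replicates were separate plants, so p-values here speak only of spread among these samples, which may be technical, and the position of the mature leaves on the stem is not given.

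Plants have no mobile immune cells and rely on each cell to recognise microbes, at the cell surface and inside the cell, and salicylic acid is a main hormone of the response that follows. That response includes secreted enzymes such as chitinases, which cut the chitin of fungal walls, lectins, which bind sugars, and regulators of programmed cell death. Many defence genes are also known to be more active in ageing leaves. Of the 9 genes, CHI encodes a putative chitinase and AT3G16530 a protein of the legume lectin family. RING1 encodes a RING finger ubiquitin ligase linked to programmed cell death. AT4G03450 encodes an ankyrin repeat protein and AT5G12940 a leucine-rich repeat protein, both built from repeats that bind other proteins. AT5G24210 encodes an alpha/beta hydrolase of a lipase class, AT3G60420 a phosphoglycerate mutase family protein, AT5G52760 a protein with a heavy-metal-associated domain, and AT2G18690 a membrane protein of unknown function. "Defence-type" is therefore a loose name for the 9. Only CHI, AT3G16530 and RING1 are of kinds named above as part of that response. For the others, among them AT2G18690 and AT3G60420, the name rests on no role given here.

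Values are MAS5 signals, brightness on a linear scale, and no level is compared between genes because each probe set has its own brightness. Changes are log2 differences of signal + 10, and a fold is a ratio of signal + 10, which understates the change of dim probe sets. No fold is given where a group averaged below 27.8, where the size of a log2 change depends on the added 10; 27.8 is the level a probe set's mean had to pass to be tested. The 9 genes have 10 probe sets, of which 9 passed. The tenth, a second probe set for AT3G60420, lay between 0.743 and 9.14 on all arrays, did not pass, and so disagrees with the probe set of that gene described below. Without the 96 h and mature arrays the level would have been 27.5 and only 7 of the 10 would have passed, AT5G52760 and AT5G12940 falling below it, so counts are also given over those 7. In whole leaves, fewer cells of a type and less RNA per cell cannot be told apart.

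Array medians lay between 40.8 and 48.1. RCA, the Rubisco activase gene and the only 1 of 10 leaf markers with a named probe set, averaged 4778 in mature leaves and 2594 to 4025 in the developing groups. The root marker PYK10 averaged 11.8 ± 2.83 (SD, n = 2) in mature leaves, and in developing leaves 17.9 ± 3.04 in the 2 h group, 25.3 to 26.9 in the 4, 12 and 24 h groups, 40.1 ± 20.5 in the 48 h group and 39.9 ± 15.9 in the 96 h group (SD, n = 4 each). Its mean was thus highest in the 48 and 96 h groups, where the 9 genes were also above their 24 h means, and lowest in mature leaves, where 8 of them were highest, and its part in the results was not tested. The root marker EXPA7 averaged 12.3 in mature leaves and 16.1 to 26.3 in developing groups, with 16.1 and 16.8 in the 48 and 96 h groups. Both were too dim to be tested, 2 of 8 root markers had a named probe set, and no flower or epidermis marker had one. The meristem marker CLV3 was low throughout, between 2.29 and 3.13. The log2 ratio of the 3′ to the 5′ actin probe sets, a sign of RNA integrity, averaged 1.67 in mature leaves and, in developing leaves, 2.56 in the 2 h group, 2.47 in the 4 h group and 1.76 to 2.05 in the groups from 12 to 96 h. The 2 and 4 h groups were thus the highest in this ratio, and its part in the comparisons against 2 h was not tested. The 2 arrays that share the title 24 h replicate 1 differed by a root mean square of 0.286 on the log2 scale, against 0.257 to 0.261 between the other 24 h replicates, and were averaged as 1 replicate because of the title. Both are given, before the other 3, wherever the 24 h arrays are listed.

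Of the 9 genes, 8 had their highest mean in mature leaves, the exception being AT3G16530, and in developing leaves all 9 had higher values at 96 h than at 24 h on every replicate. Between those ends they did not follow 1 course. In 7 genes the 12 h mean lay above both the 4 h and the 24 h mean, by most on the log2 scale in AT3G60420 and AT3G16530, and in the other 2, CHI and AT4G03450, it did not. CHI averaged between 31.3 and 63.0 in all groups up to 24 h. All 9 means at 24 h lay below those at 12 h, a difference that was not tested because the 24 h arrays were used to choose the genes.

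**Figure D1:**
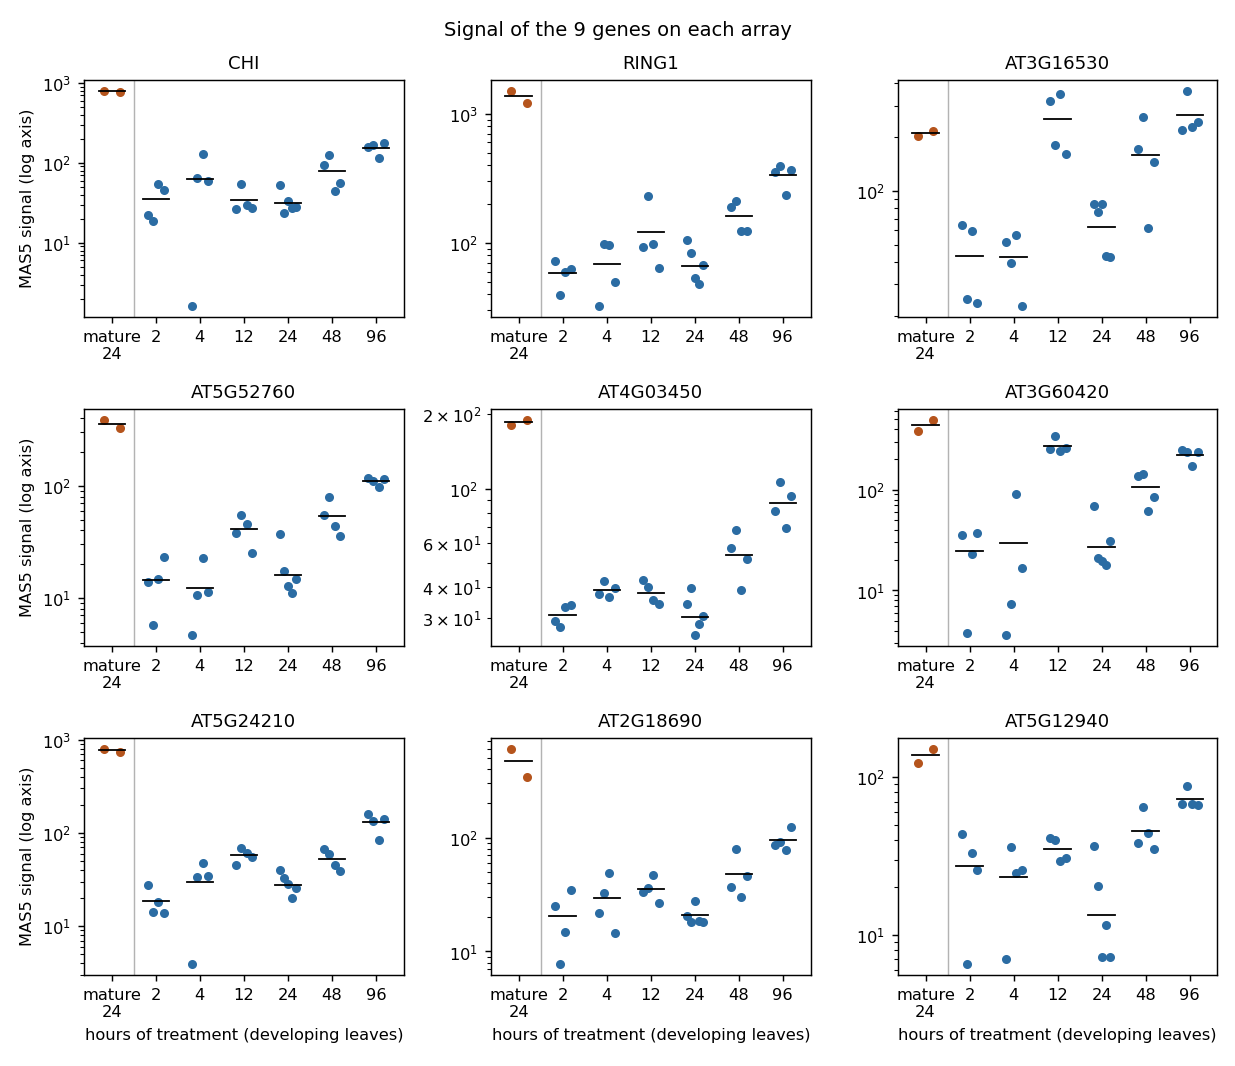
Each point is 1 array; the y axis is the MAS5 signal on a log scale and differs between panels, the x axis gives mature leaves at 24 h and developing leaves at 2 to 96 h, and black lines are group means. The 12 h points of AT3G60420 (239.9 to 342) and AT3G16530 (162 to 346) stand above their 2 and 24 h points, while the mature points of CHI (802 and 765) stand far above all developing leaves.

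CHI, the putative chitinase gene, had signals of 802 and 765 in mature leaves. The developing leaves read, on the 2 h arrays, 22.4, 18.8, 54.0 and 45.3, the 4 h arrays 1.60, 63.7, 128 and 58.9, the 12 h arrays 26.6, 54.9, 29.5 and 27.0, the 24 h arrays 53.4, 23.6, 33.6, 27.2 and 28.1, the 48 h arrays 93.6, 125, 44.3 and 56.3, and the 96 h arrays 155, 165, 113 and 175. Mature leaves stood apart from every developing group, while the 48 h and 96 h values overlapped. The 4 h group held both the lowest and the highest value of the times up to 48 h.

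AT3G16530, the lectin family gene, had 204 and 217 in mature leaves. For developing leaves, the 2 h arrays gave 64.2, 24.9, 59.4 and 23.6, the 4 h arrays 51.5, 39.3, 56.7 and 22.6, the 12 h arrays 316, 181, 346 and 162, the 24 h arrays 84.9, 76.1, 84.0, 43.4 and 42.8, the 48 h arrays 172, 259, 62.1 and 145, and the 96 h arrays 219, 365, 229 and 244. It was the 1 gene of the 9 in which mature leaves were not above 96 h, and its mean of 264 ± 67.6 (SD, n = 4) at 96 h lay beside that of 251 ± 93.7 (SD, n = 4) at 12 h. No neighbours in the order of its 7 group means were free of overlap.

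RING1, the ubiquitin ligase gene, had 1509 and 1215 in mature leaves. Among developing leaves, the 2 h arrays read 72.3, 39.7, 59.3 and 63.1, the 4 h arrays 32.3, 98.004, 96.4 and 49.4, the 12 h arrays 93.6, 232, 98.2 and 64.4, the 24 h arrays 106, 83.4, 53.8, 48.1 and 67.2, the 48 h arrays 189.5, 212, 123 and 125, and the 96 h arrays 354, 391, 236 and 364. The 96 h values lay above all at 48 h, and the mature values above all at 96 h. From 2 to 48 h, each group overlapped the next in order of level.

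AT4G03450, the ankyrin repeat gene, had 182 and 190.5 in mature leaves. The developing leaves read, on the 2 h arrays, 29.0, 27.6, 33.2 and 33.7, the 4 h arrays 37.6, 42.3, 36.2 and 39.5, the 12 h arrays 42.5, 39.8, 35.2 and 34.0, the 24 h arrays 34.1, 39.4, 25.4, 28.2 and 30.3, the 48 h arrays 57.5, 67.8, 38.8 and 51.7, and the 96 h arrays 81.1, 106, 69.4 and 93.6. Its replicates were the tightest of the 9, with a standard error of 0.13 in the fit for a difference between developing groups. All 4 h and all 12 h values lay above all 2 h values.

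AT5G12940, the leucine-rich repeat gene, had 124 and 152 in mature leaves. For developing leaves, the 2 h arrays gave 43.7, 6.47, 33.1 and 25.7, the 4 h arrays 7.03, 36.0, 24.6 and 25.9, the 12 h arrays 41.1, 39.7, 29.2 and 30.7, the 24 h arrays 36.5, 20.4, 7.22, 11.5 and 7.21, the 48 h arrays 38.3, 64.9, 44.1 and 35.0, and the 96 h arrays 67.6, 87.4, 67.4 and 67.0. Its 24 h replicates, the first 2 arrays averaged, lay below all 12 h values, the 2, 4 and 12 h groups overlapped, and at 96 h 3 of 4 arrays were within 1 unit of each other.

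AT5G24210, the lipase-class hydrolase gene, had 798 and 744 in mature leaves. Among developing leaves, the 2 h arrays read 27.4, 14.1, 18.3 and 13.7, the 4 h arrays 3.88, 33.6, 47.9 and 34.9, the 12 h arrays 44.7, 68.7, 61.2 and 54.8, the 24 h arrays 40.0, 32.6, 28.6, 20.0 and 25.3, the 48 h arrays 66.4, 59.6, 45.1 and 39.2, and the 96 h arrays 158, 134, 83.7 and 142. The 12 h values were above all at 2 h and overlapped those at 48 h.

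AT3G60420, the phosphoglycerate mutase family gene, had 380.1 and 497 in mature leaves. The developing leaves read, on the 2 h arrays, 35.6, 3.78, 23.2 and 37.0, the 4 h arrays 3.58, 7.28, 90.7 and 16.9, the 12 h arrays 255, 342, 239.9 and 262, the 24 h arrays 68.8, 20.8, 19.5, 17.95 and 30.8, the 48 h arrays 136, 144, 61.5 and 85.7, and the 96 h arrays 249.8, 237, 172 and 235. The 96 h values, averaging 224 ± 34.9 (SD, n = 4), overlapped those of 12 h, averaging 275 ± 45.7 (SD, n = 4), and all 12 h values lay above every value at 2, 4, 24 and 48 h.

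AT5G52760, the heavy-metal-associated domain gene, had 389.6 and 326 in mature leaves. For developing leaves, the 2 h arrays gave 13.9, 5.75, 14.6 and 23.1, the 4 h arrays 4.63, 10.7, 22.7 and 11.2, the 12 h arrays 38.3, 54.4, 46.1 and 25.1, the 24 h arrays 36.9, 17.2, 12.7, 11.1 and 14.9, the 48 h arrays 55.2, 79.4, 43.7 and 35.3, and the 96 h arrays 119, 109, 97.0 and 114. Its 96 h group was narrow and lay above all 48 h values.

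AT2G18690, the membrane protein gene, had 604 and 344 in mature leaves. Among developing leaves, the 2 h arrays read 25.0, 7.68, 14.7 and 35.0, the 4 h arrays 21.98, 32.5, 49.1 and 14.6, the 12 h arrays 33.2, 36.1, 46.9 and 26.6, the 24 h arrays 20.6, 18.2, 27.8, 18.6 and 18.1, the 48 h arrays 36.7, 79.8, 30.4 and 46.1, and the 96 h arrays 86.0, 92.4, 78.0 and 124. Relative to their mean, its 2 mature replicates were the furthest apart of the 9 genes, with an SD of 184 around a mean of 474.

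The contrast that chose the genes gave, at 96 h against 24 h, log2 changes of 2.69 for AT3G60420, 2.23 for AT5G52760, 2.21 for RING1, 1.96 for CHI, 1.94 for AT3G16530, 1.89 for AT5G12940, 1.88 for AT5G24210, 1.76 for AT2G18690 and 1.27 for AT4G03450. In that contrast 8.96% of the 13647 tested probe sets passed an adjusted p of 0.05 in either direction, and 7.09% had all 96 h replicates above all 24 h replicates, as all 9 genes did. Just outside the set were AT1G73600 at 1.67, CYP71B23 at 1.55, PPDK at 1.53 and AT1G35710 at 1.52. The choice was not strictly by size, since 9 named genes outside it had changes at least as large as that of AT4G03450. Part of the difference was already there at 48 h: the log2 change at 48 h against 24 h ran between 0.66 for AT4G03450 and 1.63 for AT3G60420, and that at 96 h against 48 h between 0.59 for AT5G12940 and 1.14 for AT5G24210.

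The comparisons among the 2, 4, 12 and 48 h groups use arrays that did not enter the 96 h against 24 h contrast, although AT5G52760 and AT4G03450 had also been singled out at 48 h against 24 h. At 4 h against 2 h, 0 of the 9 genes passed limma's moderated test with Benjamini-Hochberg adjustment over all 13647 probe sets, against 2.78% of all probe sets, and 0 of the 9 had an unadjusted p below 0.05. The nearest was AT4G03450, whose 4 h values lay above all 2 h values, as did those of 3.88% of all probe sets, with a log2 change of 0.26 ± 0.13 (SE) and a limma adjusted p of 0.40. The 4 h group was uneven. On replicate 1, CHI, AT3G60420, AT5G24210, AT5G52760 and RING1 had their lowest values of the whole series. These were 1.60, 3.58, 3.88, 4.63 and 32.3, in that order. Without that replicate, limma called CHI higher at 4 h (log2 change 1.06 ± 0.29, adjusted p = 0.0447) and AT5G24210 (0.80 ± 0.20, adjusted p = 0.0224).

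At 12 h against 2 h, AT3G60420, AT3G16530, AT5G24210, AT5G52760 and RING1 rose, and the other 4 did not pass the test. The 5 called make 4 of the 7 whose passing did not need the 96 h or mature arrays, beside 20.4% of all probe sets called higher and 38.7% called in either direction. The median log2 change was 0.82 over the 9 genes and 0.03 over all probe sets, and 5 of the 9 had all 12 h values above all 2 h values, as did 19.2% of all. AT3G60420 rose by a log2 change of 3.16 ± 0.41 (limma adjusted p = 6.0e-07), a size that depends on the added 10, since its 2 h mean was 24.9. AT3G16530 rose 5.01-fold, a log2 change of 2.33 ± 0.33 (limma adjusted p = 2.2e-06). The changes of AT5G24210 (1.26 ± 0.28, limma adjusted p = 0.00066) and AT5G52760 (1.08 ± 0.24, limma adjusted p = 0.00060) were smaller. RING1 was 1.77-fold higher (0.82 ± 0.29, limma adjusted p = 0.027), with overlapping values and 1 high array, 12 h replicate 2, at 232. The call was lost without that replicate (limma adjusted p = 0.178), without 2 h replicate 2 (0.101) and with no filter on low signals (0.057). The means of CHI lay close together, at 34.5 ± 13.7 at 12 h, against 35.1 ± 17.2 at 2 h (SD, n = 4 each), with a log2 change of 0.02 ± 0.44 and a limma adjusted p of 0.980. AT2G18690 had a log2 change of 0.65 ± 0.27 (limma adjusted p = 0.058), AT5G12940 0.39 ± 0.29 (limma adjusted p = 0.309) and AT4G03450 0.23 ± 0.13 (limma adjusted p = 0.176).

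The labels give no clock time, so how much of the 12 h differences belongs to the hour of day cannot be told apart from the length of treatment. At 48 h against 12 h, AT3G60420 fell by 1.34 on the log2 scale (SE 0.41, limma adjusted p = 0.0091), with 107 ± 39.7 at 48 h, against 275 ± 45.7 at 12 h (SD, n = 4 each), a call lost with a pseudocount of 1 (limma adjusted p = 0.057). AT3G16530 had a log2 change of -0.70 ± 0.33 and did not pass the test (limma adjusted p = 0.086). AT4G03450 rose by 0.40 ± 0.13 (limma adjusted p = 0.014), a call lost without 48 h replicate 2 (limma adjusted p = 0.076). This gene had also been singled out at 48 h against 24 h, so its 48 h values are not free of the choice. These were 1 gene higher and 1 lower of the 9, beside 20.4% of all probe sets called higher and 23.1% called lower in that comparison. CHI had 0.96 ± 0.44 (limma adjusted p = 0.075), and the other 5 genes had log2 changes between -0.12 and 0.49 with no call.

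At 48 h against 2 h, 7 of the 9 genes rose, 6 of them among the 7 that passed the filter without the 96 h and mature arrays, beside 8.28% of all probe sets called higher. That filter still held the 48 h arrays. The genes called include AT5G52760 and AT4G03450, which had also been singled out at 48 h against 24 h. Their 48 h arrays entered that choice, so their calls here are not independent of it. The median log2 change was 1.14 over the 9 genes and 0.01 over all, and 5 of the 9 had no overlap between the groups, as had 8.73% of all probe sets. AT3G60420 rose by 1.82 ± 0.41 (limma adjusted p = 0.0022), AT5G52760 by 1.38 ± 0.24 (limma adjusted p = 0.00012) and AT5G24210 by 1.14 ± 0.28 (limma adjusted p = 0.0044). AT3G16530 was 3.09-fold higher (1.63 ± 0.33, limma adjusted p = 0.00075), RING1 2.49-fold (1.32 ± 0.29, limma adjusted p = 0.0021) and AT4G03450 1.55-fold (0.63 ± 0.13, limma adjusted p = 0.0010). AT2G18690 rose by 0.95 ± 0.27 (limma adjusted p = 0.014), a call lost without 2 h replicate 2 (limma adjusted p = 0.081) or without 48 h replicate 2 (limma adjusted p = 0.077). It passed the filter without the 96 h and mature arrays at 28.4, against a level of 27.5. Its means were 20.6, 29.5, 35.7 and 21.0 at 2, 4, 12 and 24 h and 48.2 at 48 h. Its passing may thus have rested on the 48 h arrays, which was not examined. CHI (0.98 ± 0.44, limma adjusted p = 0.128) and AT5G12940 (0.67 ± 0.29, limma adjusted p = 0.119) did not pass. In the fit described here, CHI and AT5G12940 thus had no call at 4 h against 2 h, 12 h against 2 h, 48 h against 12 h or 48 h against 2 h. Some alternatives called them, such as array quality weights, which gave CHI a limma adjusted p of 0.036 at 48 h against 12 h and AT5G12940 one of 0.030 at 48 h against 2 h.

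**Figure D2:**
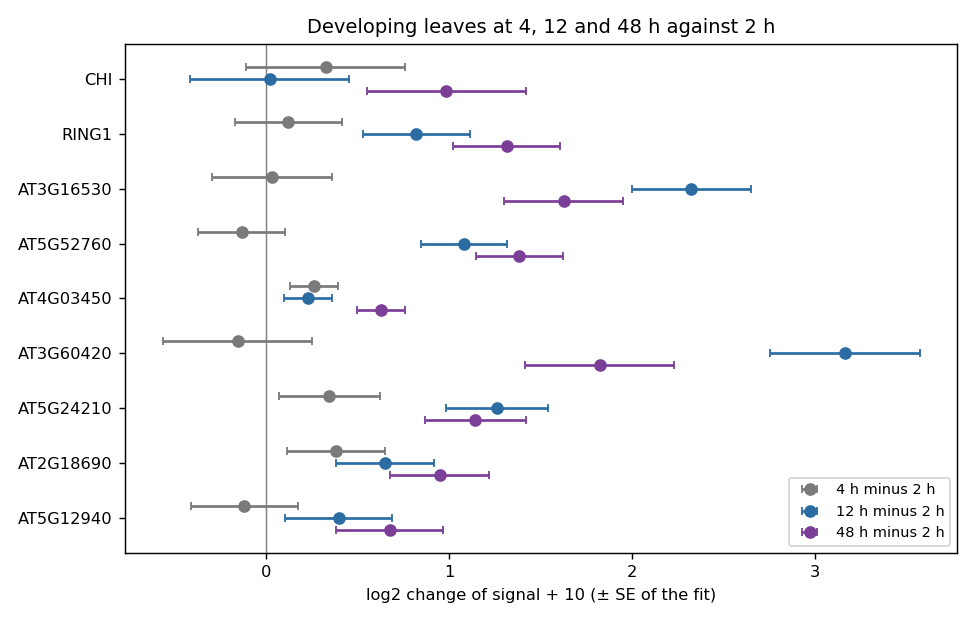
Log2 changes of signal + 10 in developing leaves (x axis, points with the SE of the fit as bars) for each gene (y axis), at 4, 12 and 48 h against 2 h. The 12 h changes of AT3G60420 (3.16) and AT3G16530 (2.33) exceed their 48 h changes (1.82 and 1.63), while CHI lies at 0.02 at 12 h and 0.98 at 48 h.

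After the same 24 h of treatment, the 9 probe sets that passed the filter were all called higher in mature than in developing leaves, among them the 7 that passed without the 96 h and mature arrays. AT5G52760 and AT5G12940 passed only through arrays on which they were high. AT5G24210 was higher by 4.40 ± 0.34 on the log2 scale (limma adjusted p = 9.3e-12), CHI 19.3-fold (4.27 ± 0.53, limma adjusted p = 7.2e-08) and RING1 18.5-fold (4.21 ± 0.36, limma adjusted p = 6.2e-11). AT2G18690 was higher by 3.92 ± 0.33 (limma adjusted p = 4.4e-11), AT5G52760 by 3.84 ± 0.29 (limma adjusted p = 5.4e-12), AT3G60420 by 3.63 ± 0.50 (limma adjusted p = 3.9e-07) and AT5G12940 by 2.73 ± 0.36 (limma adjusted p = 1.7e-07). AT4G03450 was 4.91-fold higher (2.29 ± 0.16, limma adjusted p = 1.1e-12) and AT3G16530 3.14-fold (1.65 ± 0.40, limma adjusted p = 0.00074). This comparison shares the 24 h arrays with the contrast that chose the genes, so values low by chance at 24 h would enter both. It is also wide: 27.1% of all probe sets were called higher in mature leaves and 37.5% lower, and 30.1% had no overlap with mature leaves above, as had all 9 genes. The median log2 change was 3.84 over the 9 genes and -0.10 over all probe sets. Of all 13647 probe sets, 22 had a change at least as large as that of CHI and 27 as that of RING1, against 726 for AT3G16530.

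**Figure D3:**
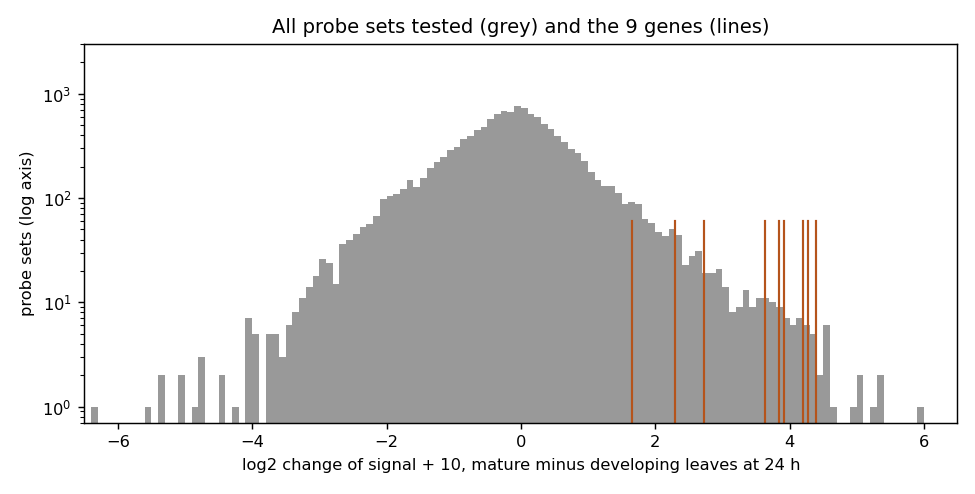
Number of probe sets (y axis, log scale) by log2 change of signal + 10, mature minus developing leaves at 24 h (x axis), for all 13647 probe sets tested in grey, with the 9 genes as lines. The lines run between 1.65 (AT3G16530) and 4.40 (AT5G24210), all to the right of the grey median of -0.10.

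Against developing leaves at 48 h, whose arrays were not in the 96 h against 24 h contrast, 8 of the 9 genes were higher in mature leaves, 6 of them among the 7, beside 26.7% of all probe sets called higher. AT5G24210 was 12.7-fold higher (3.66 ± 0.34, limma adjusted p = 3.7e-10), CHI 9.41-fold (3.23 ± 0.53, limma adjusted p = 6.5e-06), AT2G18690 8.39-fold (3.07 ± 0.33, limma adjusted p = 5.3e-09) and RING1 8.12-fold (3.02 ± 0.36, limma adjusted p = 3.3e-08). AT5G52760 was 5.97-fold higher (limma adjusted p = 1.2e-08), AT3G60420 3.99-fold (limma adjusted p = 0.0010), AT4G03450 3.11-fold (limma adjusted p = 8.9e-10) and AT5G12940 2.70-fold (limma adjusted p = 0.0010). Here too, AT5G52760 and AT5G12940 could be tested only through arrays on which they were high. AT3G16530 had 210.1 ± 9.25 (SD, n = 2) in mature leaves and 159.5 ± 81.2 (SD, n = 4) in developing leaves at 48 h, a log2 change of 0.52 ± 0.40 that did not pass (limma adjusted p = 0.262). The 8 genes called were also those with no overlap, as had 29.5% of all probe sets, and the median log2 change was 2.58 over the 9 genes and -0.11 over all.

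**Figure D4:**
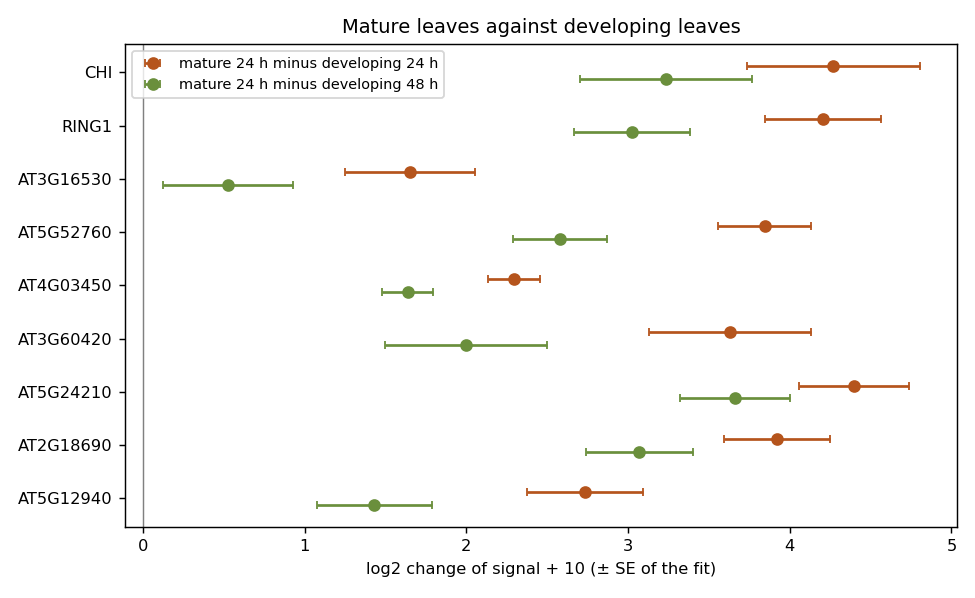
Log2 changes of signal + 10 (x axis, points with the SE of the fit as bars) for each gene (y axis) in mature leaves at 24 h, minus developing leaves at 24 h and minus developing leaves at 48 h. AT5G24210 lies furthest right at 4.40 and 3.66, and AT3G16530 furthest left at 1.65 and 0.52.

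Beside the 96 h values, which chose the genes and so carry no test, both mature arrays lay above every 96 h array for 8 of the 9 genes, as they did for 29.5% of all probe sets. The difference of the log2 means, mature minus 96 h, was 2.52 for AT5G24210, 2.31 for CHI, 2.17 for AT2G18690, 2.00 for RING1 and 1.62 for AT5G52760. It was near 1 for AT4G03450 (1.02), AT3G60420 (0.94) and AT5G12940 (0.84), and it was -0.29 for AT3G16530. The 96 h and mature values overlapped in AT3G16530 alone, and the gap was widest in AT5G24210 and CHI.

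Replicates of 1 group also moved together in these genes. Taking each of the 26 replicates as a deviation from its group mean, all 36 pairs of the 9 genes correlated above 0, with a median Pearson's r of 0.53 and a range between 0.16 (CHI with AT3G16530) and 0.83 (CHI with AT5G24210). RING1 and AT5G52760 correlated at 0.80. Over all pairs of tested probe sets the median was 0.003, and 2.78% were at or above 0.53. The 5th and 95th percentiles of all pairs were -0.453 and 0.46. These percentiles describe single pairs and not medians of 36 pairs. Without 4 h replicate 1 and 48 h replicate 2, the median of the 36 pairs was 0.44. Points in such a correlation share an array, with its RNA, depth of signal and normalization, and members were chosen on part of the same arrays, so it is given with no test.

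**Figure D5:**
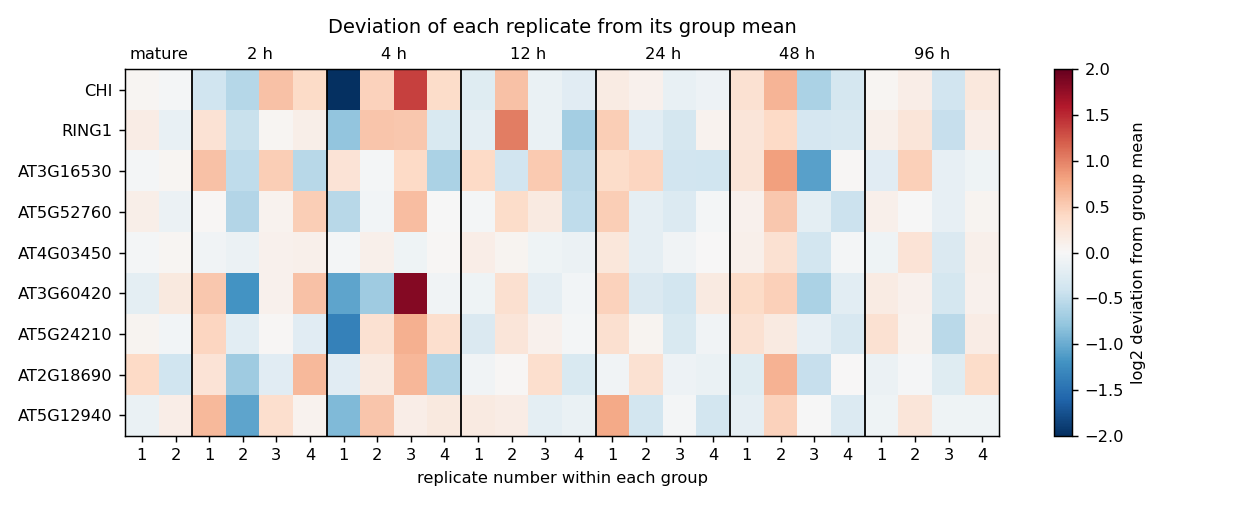
Colour gives the log2 deviation of each replicate from its group mean, for each gene (rows) and replicate (columns, in groups from mature leaves to 96 h). The columns of 4 h replicate 1, 2 h replicate 2 and 48 h replicate 3 are blue in nearly all rows, with means of -0.76, -0.60 and -0.43, and those of 4 h replicate 3 and 48 h replicate 2 red, with means of 0.69 and 0.50.

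The mean deviation over the 9 genes was -0.76 on 4 h replicate 1, where 1 of 9 lay above its group mean, and 0.69 on 4 h replicate 3, where 8 of 9 did. At 48 h, replicate 2 had a mean deviation of 0.50 with 9 of 9 genes above, and replicate 3 one of -0.43 with 0 of 9. At 2 h, replicate 2 lay at -0.60 with 0 of 9 above. At 96 h, replicate 3 lay at -0.30 with 0 of 9 above. The actin ratio of these arrays was 1.74 on 4 h replicate 1 and 3.05 on 4 h replicate 3, the lowest and the highest of that group. It was 1.77 on 48 h replicate 2, 2.69 on 48 h replicate 3 and 3.08 on 2 h replicate 2, the last 2 being the highest of their groups, and 1.56 on 96 h replicate 3. Its part in these deviations was not tested. Every call given above as lost without 1 replicate was lost without replicate 2 of the 2, 12 or 48 h group.

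Over the 7 group means, each gene's profile on the log2 scale was set against the mean of the other 8. AT5G52760 (r = 0.996), RING1 (0.99), AT5G24210 (0.98), AT2G18690 (0.97), AT5G12940 (0.97) and AT4G03450 (0.96) ran closest to it, while CHI had 0.93, AT3G60420 0.87 and AT3G16530 0.74. Over the 6 developing groups alone, AT3G60420 was lowest at 0.82, then CHI at 0.86 and AT3G16530 at 0.87. These r values rest on 7 or 6 points. The named genes most like the mean of the 9 over the 7 groups were AT3G14470 (r = 0.994), AT1G49750 (0.991), AT1G35430 (0.991), AT1G12990 (0.990) and AT1G72060 (0.990), then AT1G66880, AT4G34480, CYP71B23, AT3G47570 and AT1G35710 between 0.989 and 0.982. Of 7404 tested probe sets with 1 named gene examined in this way, 337, or 4.55%, had an r over 0.9. CYP71B23, a cytochrome P450 gene, averaged 224 in mature leaves, and in developing leaves 58.5 at 96 h and 13.4 at 24 h. AT1G72060 averaged 358 in mature leaves, and in developing leaves 137 at 96 h and 54.7 at 24 h. Such an r compares the shape of a profile and not its size. For mature against developing leaves at 24 h, the log2 change was 3.34 for CYP71B23 and 2.50 for AT1G72060. It was 0.89 for AT3G14470, 0.996 for AT1G49750, 0.96 for AT1G35430 and 0.82 for AT1G12990.

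The genes beside the 9 on the chromosomes were followed too. Names and order were taken from the TAIR10.1 annotation, where CHI and AT2G18690 lie on chromosome 2, AT3G16530 and AT3G60420 on chromosome 3, AT4G03450 on chromosome 4 and the other 4 on chromosome 5. Of the 54 loci flanking them, 3 on each side, 20 could be read through a named probe set and 11 of those were tested. At 96 h against 24 h, 4 of the 11 rose, beside 4.62% of all probe sets called higher. AT5G52750, next to AT5G52760 and like it a heavy-metal-associated domain gene, averaged 392 in mature leaves, and in developing leaves 27.3 to 29.5 in the 2, 4 and 24 h groups, 39.9 in the 12 h group, 44.5 in the 48 h group and 71.3 in the 96 h group. It rose by 1.12 ± 0.18 at 96 h against 24 h (limma adjusted p = 0.00016) and was higher by 3.43 ± 0.22 in mature leaves (limma adjusted p = 1.8e-13). The probes of such closely related neighbours may share targets, which was not tested. Beside CHI, the chitinase family gene AT2G43590 ran the other way in mature leaves, with 70.1 in mature leaves and 204 in developing leaves at 24 h, a log2 change of -1.39 (limma adjusted p = 0.00017), and its change at 96 h against 24 h was -0.66 (limma adjusted p = 0.087). AT3G60440 and AT3G60450, of the phosphoglycerate mutase family like AT3G60420, rose at 96 h against 24 h by 0.41 (limma adjusted p = 0.0054) and 0.63 (limma adjusted p = 0.00073), and in mature leaves against developing leaves at 24 h their log2 changes were -0.58 (limma adjusted p = 6.9e-05) and 0.39 (limma adjusted p = 0.018). AT2G18670, near AT2G18690, had a log2 change of 0.36 at 96 h against 24 h (limma adjusted p = 0.0496) and one of 1.28 in mature leaves (limma adjusted p = 8.5e-09).

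Other defence and stress genes could be read only in part, since of 144 genes in 8 lists (salicylic acid, camalexin and indole glucosinolates, jasmonate and ethylene, pattern recognition, WRKY factors, chitinases and lectins, senescence, oxidative stress) 25 could be read through a named probe set and 13 of those were tested. At 96 h against 24 h, 3 of the 13 rose and 0 fell, beside 4.62% and 4.35% of all probe sets, with a median log2 change of 0.02. The 3 were WRKY53, a transcription factor gene of senescence and defence (0.62 ± 0.15, limma adjusted p = 0.0094), the zinc finger gene STZ (0.85 ± 0.27, limma adjusted p = 0.04999) and the chitinase family gene AT3G47540 (0.48 ± 0.15, limma adjusted p = 0.042). The calls of STZ and AT3G47540 were lost in 13 and 10 of 21 alternatives. The loss of single replicates at 24 or 96 h was among these, while WRKY53 was called in all 21. WRKY53 averaged 16.1 to 33.4 in the developing groups up to 48 h, 40.1 at 96 h and 189 in mature leaves. Its means at 2, 4, 12, 24 and 48 h were 16.5, 16.1, 33.4, 22.4 and 33.2. Together these average below 27.5, the level without the 96 h and mature arrays. WRKY53 was thus tested only through arrays on which it was high, and its calls are not free of the filter. The filter without those arrays was not run for the list genes. The count of 3 became 1 without any 1 of 24 h replicates 2, 3 and 4 or 96 h replicates 1, 3 and 4. At 12 h against 2 h, 5 of the 13 rose and 2 fell, beside 20.4% and 18.4% of all probe sets. At 48 h against 2 h, 2 rose and 0 fell, beside 8.28% and 8.79%.

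In mature leaves at 24 h, 6 of the 13 were higher than in developing leaves and 3 lower, beside 27.1% and 37.5% of all probe sets. WRKY53, 1 of the 6, is under the same limit of the filter as above. STZ averaged 844 in mature leaves and 26.9 in developing leaves (4.56 ± 0.33, limma adjusted p = 3.1e-12), WRKY53 189 in mature leaves and 22.4 in developing leaves (2.61 ± 0.19, limma adjusted p = 1.8e-12), and AT3G47540 186 in mature leaves and 44.4 in developing leaves (1.85 ± 0.18, limma adjusted p = 9.1e-10). The 3 lower ones, AT2G43590, AT2G43610 and AT1G53070, are all chitinase or lectin family genes and, except AT2G43590, were named after their values were seen. In that family list 1 of 6 tested genes was higher in mature leaves and 3 lower, beside the same 27.1% and 37.5%, and nothing is read from so few. Of 30 salicylic acid genes only SAG101 and UGT76B1 had a named probe set, both too dim to be tested. UGT76B1, which encodes a glycosyltransferase, averaged 21.4 ± 2.66 (SD, n = 2) in mature leaves, and in developing leaves 28.6 ± 18.5 at 96 h and 2.69 ± 3.76 at 24 h (SD, n = 4 each). SAG101 averaged 47.4 ± 3.59 (SD, n = 2) in mature leaves. In developing leaves it averaged 27.8 ± 6.03 at 12 h, 19.8 ± 6.55 at 24 h and 24.6 ± 5.10 at 96 h (SD, n = 4 each). SAG29, a senescence gene and the only one named of 10, averaged 93.6 ± 65.6 (SD, n = 2) in mature leaves and between 5.49 and 11.2 in the developing groups, and was not tested. PDF1.2, a marker of jasmonate and ethylene responses, had no call in any of the comparisons, and no camalexin or indole glucosinolate gene of 14 had a named probe set.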

How the data were processed

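Leaf RNA was hybridised to 28 ATH1 arrays. The deposited values are intensity values, linear MAS5 signals per the submitters' processing notes; version, scaling and genome build are not given in the sources used here. The authors' table was used as deposited. Of 22810 probe sets, 64 are controls and were left out; 13513 carry 1 gene name, 503 several and 8730 none. Signals were transformed as log2(signal + 10), and the 13647 probe sets with a mean over the 40th percentile (a signal of 27.8) were tested. One limma fit (version 3.58.1, R 4.3.3, eBayes with trend, two-sided, 19 residual degrees of freedom) covered 7 groups and 26 replicates from 27 arrays, with Benjamini-Hochberg adjustment over all probe sets tested and a threshold of 0.05. The array whose treatment note differs from the other 4 h notes was left out of all groups. The number of arrays, not read depth, limits precision. The genes, the lists and the comparisons were chosen with earlier results of these data known. All 9 genes are named; other genes were named if they were list genes past the threshold at 96 h against 24 h, flanked a member, or were the 10 most alike in pattern. The genes just outside the choice, marker genes and the list genes UGT76B1, SAG101, SAG29, PDF1.2, AT2G43610, AT2G43620 and AT1G53070 were named outside that rule, after their values were seen. Deviations from group means of same-numbered arrays correlated between -0.117 and 0.37 in the tested comparisons, the highest being replicate 1 at 12 h against 2 h. The main fit did not treat the numbers as pairs, although that value is not near 0. Alternatives covered the pseudocount, filter, centring, weights, the 24 h arrays, a replicate block and single replicates left out. The fit was tested on simulated data.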

Additional observations from a re-analysis of the deposited data

Results flagged for a closer look

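In 4 of the 54 groups examined (9 genes in 6 groups of 4 replicates), 1 replicate lay far from the others by Dixon's 95% criterion for the gap over the range; chance alone does so in about 1 in 20 groups. CHI had 54.9 on 12 h replicate 2, against 26.6 to 29.5 on the others. AT3G60420 had 90.7 on 4 h replicate 3, against 3.58 to 16.9. AT2G18690 had 27.8 on 24 h replicate 2, against 18.1 to 19.4. AT5G12940 had 87.4 on 96 h replicate 2, against 67.0 to 67.6. In each case the replicate that stood apart was the highest, and 3 of the 4 were replicate 2.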

How the results depend on the processing

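Over the 31 single calls of the 9 genes, 573 of 580 values under the alternatives kept the call and direction, 7 lost the call and 0 reversed. With the filter at the 60th percentile only 3 of the genes were tested, and the counts became 3 at 12 h against 2 h, 0 higher at 48 h against 12 h, 3 at 48 h against 2 h, 3 for mature against developing leaves at 24 h, 2 for mature leaves against 48 h, and 3 genes with a log2 change of at least 1 at 96 h against 24 h, by its construction. At 48 h against 12 h, 2 genes instead of 1 were called higher with a pseudocount of 50, with array quality weights or with only the compared groups (the added gene was CHI), and 0 instead of 1 lower with a pseudocount of 1 (AT3G60420); the cause was not tested. The alternative, added after seeing the data, that left replicate 1 out of all groups gave 1 call at 4 h against 2 h (AT5G24210). Leaving out single replicates gave 0 to 2 calls at 4 h against 2 h, 4 to 6 at 12 h against 2 h, 0 to 2 higher and 1 to 2 lower at 48 h against 12 h, 6 to 8 at 48 h against 2 h, and 9 and 8 for mature leaves against 24 h and against 48 h; at 96 h against 24 h, which chose the genes, 9 kept a log2 change of at least 1, from which nothing is read; without a mature replicate the lone array is assumed to vary like the other groups. The replicate block left the counts at 0, 5, 1 higher and 1 lower, 7, 9 and 8. At 48 h against 24 h all 4 same-number correlations exceeded 0.1 (0.13 to 0.619), but no call is used there. For the gene lists, alternatives added after seeing the data gave 1 higher at 96 h against 24 h with no filter, with the second 24 h replicate 1 array only or with both as separate samples, 0 at the 60th percentile, and 1 to 4 with a replicate left out (0 to 1 lower); for mature leaves the 60th percentile gave 0 higher and 1 lower. At 96 h against 24 h the 1223 probe sets called became 1955 with array quality weights and 728 without 24 h replicate 3.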

Other observations

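One 4 h array, titled replicate 1 like another but with a treatment note of its own, was put in no group. It had 4.24 for CHI, 55.8 for RING1, 49.6 for AT3G16530, 7.76 for AT5G52760, 40.5 for AT4G03450, 9.35 for AT3G60420, 7.80 for AT5G24210, 20.0 for AT2G18690 and 22.4 for AT5G12940. All 9 values lay within the range of the 4 grouped 4 h arrays. For CHI, AT5G24210, AT5G52760 and AT5G12940 this was so only through the grouped replicate 1, and the values lay below those of replicates 2, 3 and 4. CHI, AT3G60420 and AT5G24210 were low on it, as on the grouped 4 h replicate 1.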
